A study of Mus musculus with 10 samples.

Results

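Mitochondrial ribosomal proteins are the nuclear-encoded proteins of the ribosome inside mitochondria, and their genes were described here across 10 tumors. The members were picked by a rule on gene names, set with earlier results of these data known. They are the protein-coding genes of the count table whose mouse symbol is Mrpl or Mrps followed by a number, with or without a closing letter. This rule found 78 genes among the 55401 genes of the table, on 17 chromosomes, and 77 of them passed the filter on low counts and were tested.

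The study asked which tumor genes differ when obese mice with lung cancer receive liraglutide, an agonist of the receptor for glucagon-like peptide-1. Obese male C57BL/6J mice, 7 to 17 weeks old and made obese with a high-fat diet, received KPN1.1 cells under the skin of the flank. Once tumors could be felt, 1 group was given liraglutide into the peritoneum every day (0.2 μg per g of body weight) and the other the PBS vehicle. Tumors were collected 19 to 22 days after the injection of cells, and RNA from a frozen fragment of each was sequenced, with 5 tumors a group. The cells were derived from mouse lung cancer, and all 10 tumors grew from this 1 line, away from the lung. The tumor numbers 1 to 5 are those of the sample titles, which do not link them to single mice, so the p-values measure the spread between these tumors.

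The mitochondrial ribosome translates the few messenger RNAs of the mitochondrial genome, all of which encode subunits of the respiratory chain and the ATP synthase. Its small subunit decodes the messenger RNA, and its large subunit joins the amino acids and passes the new chain to the inner membrane. Its RNAs come from the mitochondrial genome, whereas its proteins are translated in the cytoplasm and imported. Some of these proteins descend from bacterial ribosomal proteins, and others were added during the evolution of mitochondria.

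By structure, 51 members belong to the large subunit, 26 to the small subunit, and Mrps36 to neither. Mrps30 and Mrps18a carry small-subunit names but sit on the large subunit. Mrps36 is known as a part of the α-ketoglutarate dehydrogenase complex of the citric acid cycle and was kept because its name meets the rule. Of the 77 ribosomal members, 46 were classed as of bacterial origin and 31 as particular to mitochondria. Mrps18c was counted among the 46, whereas Mrps18a and Mrps18b were counted among the 31.

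The tumors held 9927942 to 14480593 counts each. Levels are given in CPM, which are counts scaled to a common library size after TMM scaling. The label of lung adenocarcinoma was met in part. Among its 11 markers, Krt8, Krt18, Krt19 and Cdh1 were high (Krt8 at 1631 to 3294 CPM). Krt7 lay at 104 to 411 CPM, the surfactant gene Sftpb at 65.1 to 530 CPM and the lung lineage factor Nkx2-1 at 17.7 to 132 CPM. Sftpa1 stayed at or below 17.3 CPM, and Sftpc, Napsa and Epcam at or below 5.96 CPM. The summed adenocarcinoma markers spanned 4794 to 10661 CPM in the vehicle group and 5257 to 7751 CPM in the liraglutide group. Sums over the markers of other cells overlapped between the groups for leukocytes (96.2 to 187 CPM with vehicle, 115 to 224 with liraglutide), fibroblasts (846 to 2029 and 1155 to 2249) and endothelium (78.5 to 127 and 79.5 to 103). They also overlapped for adipocytes (12.4 to 65.5 and 11.3 to 24.5). For skeletal muscle the ranges overlapped (33.0 to 233 and 77.1 to 324) but the medians were 59.9 CPM with vehicle and 208 CPM with liraglutide. Keratinocyte markers summed to 8.36 to 17.6 CPM with vehicle, and 3 liraglutide tumors exceeded this range, tumor 2 with 200 CPM, tumor 4 with 76.2 CPM and tumor 5 with 49.9 CPM. Ly6g was listed at 0 in all 10 tumors, Krt1 in 5 and Krt5 in 4, and the part of these cells in the values below was not tested. In such bulk samples, fewer cells of a type and less RNA per cell cannot be told apart.

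The members were genes of moderate level. Each tested member had between 26 and 995 counts in a tumor, and mean levels ran from 4.47 CPM to 54.8 CPM with a median of 20.5 CPM. Per kilobase of transcript, the highest were Mrps21 (38.8 CPM per kb), Mrpl21 (30.2) and Mrpl42 (27.1), and the lowest were Mrps28 (2.17), Mrpl55 (2.42) and Mrpl54 (3.20). This order rests on the transcript chosen for the length. Per kilobase of coding sequence, Mrpl50 (115 CPM per kb), Mrpl51 (98.6) and Mrps17 (96.9) exceeded Mrps21 (61.4). Mrpl53, a protein of the large subunit, was listed at 0 counts in all 10 tumors, which at 3 counts allows a level of up to 0.207 to 0.302 CPM, by tumor. Its exons share 141 bases with an antisense gene, Ccdc142os. How the authors' counting treated such overlaps is not given in the sources used here, and the same holds for the 41 tested members whose exons overlap those of another gene.

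What the members share in sequence was read from their promoters, 250 bases before to 50 bases after the transcription start in RefSeq's GRCm38.p6 annotation. A window was found for 69 of the 78 members. Of these windows, 36.2% (25 of 69) held CCGGAAG, the core motif of ETS factors such as GABP, against 9.12% of all 27025 promoters and 17.2% of the promoters of tested genes. The NRF1 core GCGCATGC was in 11.6% of the members' windows (2.8% of all, 5.01% of tested genes), and the YY1 core AAGATGGC was in 17.4% (2.88% and 4.42%). The CCAAT box was in 39.1% of members, 37.9% of all promoters and 38.5% of those of tested genes. The E-box CACGTG was in 7.25% of members (7.24% of all, 9.75% of tested genes) and TATAAA in 5.8% (14.2% and 8.28%). Both strands were searched, the motifs may overlap, and a match is a description and not a shown binding site. At least 1 of the ETS, NRF1 and YY1 cores was found in 37 members and none in 32.

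The promoters of 4 members are given below, with every match to the 6 motifs in capitals. Mrpl12 and Mrps30 are the pair of genes whose level separated the groups, Mrpl9 shows the NRF1 core, and Mrps12 shows the ETS and YY1 cores. The Mrpl12 window (chr11:120484387-120484686, plus strand) held none of the motifs. That of Mrps30 (chr13:118387203-118387502, minus strand) held 3 CCAAT boxes, read as ATTGG on the strand shown. That of Mrpl9 (chr3:94443086-94443385, plus strand) held 2 overlapping NRF1 cores, and that of Mrps12 (chr7:28741772-28742071, minus strand) held 4 CCAAT boxes, a YY1 core on the opposite strand and an ETS core.
Mrpl12: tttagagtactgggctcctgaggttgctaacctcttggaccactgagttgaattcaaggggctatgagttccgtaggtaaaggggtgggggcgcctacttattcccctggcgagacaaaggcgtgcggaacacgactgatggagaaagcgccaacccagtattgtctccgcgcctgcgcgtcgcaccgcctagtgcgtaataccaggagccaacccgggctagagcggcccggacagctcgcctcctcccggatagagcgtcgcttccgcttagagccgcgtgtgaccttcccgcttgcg
Mrps30: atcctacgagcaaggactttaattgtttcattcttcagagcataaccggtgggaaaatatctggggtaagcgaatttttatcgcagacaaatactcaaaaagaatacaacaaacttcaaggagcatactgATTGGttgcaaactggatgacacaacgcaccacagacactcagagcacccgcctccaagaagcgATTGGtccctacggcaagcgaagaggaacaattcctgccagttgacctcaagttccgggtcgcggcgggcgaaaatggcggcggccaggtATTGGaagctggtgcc
Mrps12: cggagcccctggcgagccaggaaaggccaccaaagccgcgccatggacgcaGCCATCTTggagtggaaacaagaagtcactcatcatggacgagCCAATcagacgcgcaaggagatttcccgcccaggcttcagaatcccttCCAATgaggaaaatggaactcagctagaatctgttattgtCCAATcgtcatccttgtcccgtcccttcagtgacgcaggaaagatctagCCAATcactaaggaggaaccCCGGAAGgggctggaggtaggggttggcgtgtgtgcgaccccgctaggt
Mrpl9: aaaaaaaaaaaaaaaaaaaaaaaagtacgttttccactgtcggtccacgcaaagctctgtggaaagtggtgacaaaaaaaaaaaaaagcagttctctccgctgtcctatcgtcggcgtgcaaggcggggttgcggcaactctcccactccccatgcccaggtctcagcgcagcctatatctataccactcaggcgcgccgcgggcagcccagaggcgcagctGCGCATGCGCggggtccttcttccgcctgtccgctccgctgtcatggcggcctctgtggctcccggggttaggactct

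Liraglutide was then compared with vehicle, gene by gene. The difference asked for an adjusted p under 0.05, and 0 of the 77 members passed it in edgeR's quasi-likelihood test (0% of all 17464 genes tested). The smallest adjusted p among the members was 0.482, which was also the smallest over all genes. limma-voom called 0 genes in all. DESeq2 without independent filtering called 11 of 17444 genes and 0 members, and with its default filtering it called 52 genes and gave no member an adjusted p. At an unadjusted p under 0.05, 6 members had lower levels with liraglutide (7.79%, against 5.62% of all genes) and 0 had higher levels (against 3.97% of all genes).

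The log2 fold changes were small and mostly negative. They ran from -0.34 for Mrpl47 to 0.31 for Mrps36, and 59 of the 77 lay between -0.2 and 0.2. A negative value was found in 62 members (80.5%, against 52.6% of all genes) and a positive value in 15, and the median was -0.09 against -0.02 over all genes. With libraries scaled by their total counts alone, 50 members were negative (against 44.2% of all genes) and 27 positive, with a median of -0.04 against 0.04 over all genes. The distance between the medians was -0.075 with that scaling and -0.074 with TMM. For 67 members the 95% interval lay within 0.58 of 0 on the log2 scale, the fold the study used as its threshold, and the other 10 intervals reached as far as -0.71 and 0.73.

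**Figure D1:**
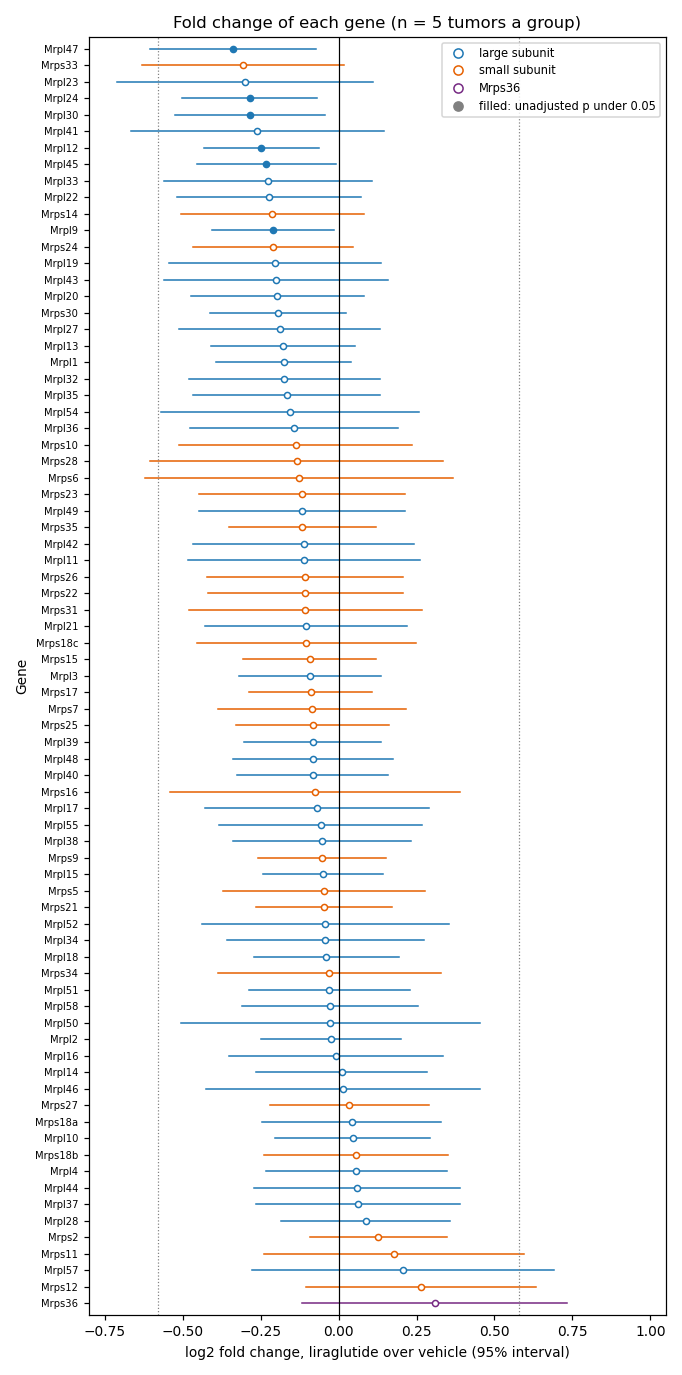
Log2 fold change, liraglutide over vehicle, of each of the 77 tested genes (points) with its 95% interval (lines), 5 tumors a group, ordered by fold change and coloured by subunit, with dotted lines at -0.58 and 0.58. Filled points are the 6 genes with an unadjusted p under 0.05, all of them negative and on the large subunit, and 62 points lie below 0.

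Both subunits had negative medians. The counts at an unadjusted p under 0.05 that follow are all of lower levels and stand against the 5.62% of all genes. In the large subunit, 41 of 50 tested genes were negative with a median of -0.10 and 6 (12.0%) had such a p. In the small subunit, 21 of 26 were negative with a median of -0.09 and 0 had such a p, although the subunits were not tested against each other. Proteins of bacterial origin had a median of -0.10 (39 of 46 negative, 5 or 10.9% at that p) and those particular to mitochondria -0.08 (23 of 30 negative, 1 or 3.33% at that p). Members with and without an exon overlap had medians of -0.09 and -0.09. The medians were also -0.09 and -0.09 in the 36 tested members with an ETS, NRF1 or YY1 core and the 32 without one, of which 1 and 5 were lower at an unadjusted p under 0.05. In the 8 members with at least 2 of these cores, 4 were negative and the median was -0.02.

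Mrpl12 forms the flexible stalk that brings translation factors to the large subunit, and it is also known to bind the mitochondrial RNA polymerase. Its level was 43.6, 39.03, 42.5, 42.5 and 45.6 CPM in vehicle tumors 1 to 5 and 34.6, 34.3, 37.9, 36.4 and 36.4 CPM in liraglutide tumors 1 to 5. All 5 liraglutide tumors lay below all 5 vehicle tumors. Its means were 42.7 ± 2.39 and 35.9 ± 1.48 CPM (SD, n = 5 each), a log2 fold change of -0.25 ± 0.08 (SE), with an adjusted p of 0.482 in edgeR. The exact permutation test gave p = 0.00794, the smallest that 5 against 5 tumors allow (252 arrangements, two-sided).

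Mrps30 was the other gene without overlap between the groups. It lies on the large subunit, although its name says small. The vehicle tumors had 27.6, 23.7, 24.1, 23.7 and 23.8 CPM and the liraglutide tumors 19.2, 22.04, 23.3, 22.5 and 20.5 CPM. The gap was narrow, since the highest liraglutide tumor lay just under the lowest vehicle tumor. The log2 fold change was -0.19 ± 0.10 (SE), with an unadjusted p of 0.0761 and an adjusted p of 0.560 in edgeR. The exact permutation p of 0.00794, here and for Mrpl12, follows from the lack of overlap by which these genes were singled out. Across all genes, 0.888% were lower without overlap and 0.607% higher, so the 2 lower and 0 higher members stand against these shares. With libraries scaled by total counts alone, or with at least 10 counts asked in every tumor, no member separated the groups.

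Mrpl24, a protein of the large subunit with a bacterial counterpart, had 35.0, 34.0, 37.2, 29.2 and 31.9 CPM with vehicle and 26.2, 28.8, 29.6, 27.2 and 25.5 CPM with liraglutide. Only liraglutide tumor 3 reached into the vehicle range. Its log2 fold change was -0.28 ± 0.10 (SE), with an unadjusted p of 0.0144 and an adjusted p of 0.482 in edgeR, and 39.8% of its exon length overlaps Mettl25b on the opposite strand.

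Mrpl47 had the most negative fold change of all members. It sits near the exit of the tunnel through which new chains leave the ribosome. Its levels were 15.5, 19.1, 16.5, 18.2 and 14.3 CPM with vehicle and 14.3, 11.999, 12.96, 14.5 and 12.3 CPM with liraglutide, so that vehicle tumor 5 fell within the liraglutide range. The log2 fold change was -0.34 ± 0.12 (SE), with an unadjusted p of 0.0177 and an adjusted p of 0.482 in edgeR.

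The vehicle tumors had 34.1, 37.8, 42.6, 49.5 and 41.4 CPM of Mrpl30, another large-subunit protein of bacterial origin. Its values in the liraglutide tumors were 33.4, 33.5, 32.4, 36.2 and 33.1 CPM. These were close together (SD of 1.45 CPM against 5.76 CPM with vehicle), and only liraglutide tumor 4 exceeded the lowest vehicle tumor. The log2 fold change was -0.28 ± 0.11 (SE), with an unadjusted p of 0.0247 in edgeR.

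Mrpl9, whose promoter with its NRF1 cores is shown above, had 42.1, 35.7, 36.1, 39.3 and 40.7 CPM with vehicle and 33.9, 35.8, 31.7, 33.8 and 32.5 CPM with liraglutide. Here liraglutide tumor 2 alone reached the vehicle range. The log2 fold change was -0.21 ± 0.09 (SE), with an unadjusted p of 0.0369 in edgeR.

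Mrpl45, which helps to hold the ribosome at the inner membrane, had 47.6, 43.0, 49.1, 44.0 and 48.4 CPM with vehicle and 45.3, 38.8, 41.1, 39.4 and 33.1 CPM with liraglutide. Liraglutide tumor 1 lay among the vehicle tumors and liraglutide tumor 5 far below them. The log2 fold change was -0.23 ± 0.10 (SE), with an unadjusted p of 0.0426 in edgeR. The exact permutation p was 0.0159 for Mrpl24, Mrpl47, Mrpl30 and Mrpl9 and 0.0238 for Mrpl45. These values are not adjusted, and the genes were picked for their small p in the same data.

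**Figure D2:**
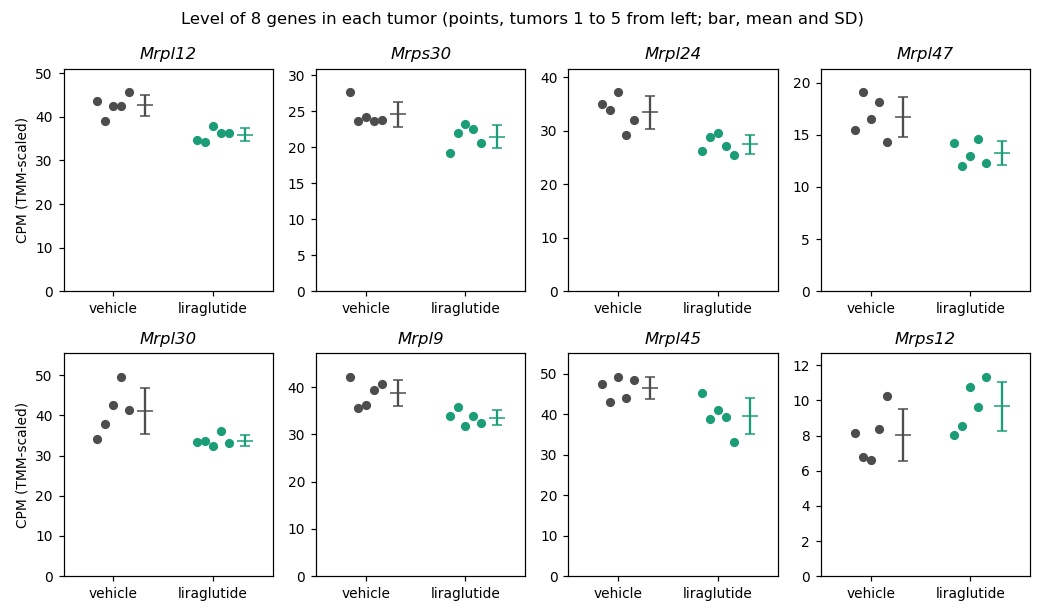
TMM-scaled CPM of 8 genes in the 5 vehicle tumors (grey) and 5 liraglutide tumors (green), numbers 1 to 5 from left to right, with the mean and SD at the side of each group and axes from 0. In Mrpl12 and Mrps30 the groups do not overlap, in the other 5 lower genes 1 liraglutide tumor reaches into the vehicle range, and Mrps12 lies higher with liraglutide with overlap.

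The next members by p-value did not pass an unadjusted 0.05 in edgeR. Mrps33, a small-subunit protein particular to mitochondria, had 10.5 to 14.2 CPM with vehicle (median 12.2) and 8.22 to 12.7 CPM with liraglutide (median 9.70), a log2 fold change of -0.31 ± 0.15 (SE). In both Mrps24, of the small subunit (-0.21 ± 0.12), and Mrpl1, of the stalk through which used transfer RNAs leave (-0.18 ± 0.10), the groups overlapped. The exact permutation p was 0.0397 for Mrps33 and for Mrpl1 and 0.0556 for Mrps24, again not adjusted and in genes picked for a small p. Mrpl23, beside the tunnel exit, was among the 3 most negative (-0.30 ± 0.19), and its interval, from -0.71 to 0.11, was the widest downward of all.

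Only 3 members had fold changes above 0.2, and their p-values in edgeR were 0.138 or more. Mrps12 is the decoding-site protein of the small subunit. It had 8.15, 6.79, 6.61, 8.37 and 10.3 CPM with vehicle and 8.03, 8.57, 10.8, 9.64 and 11.3 CPM with liraglutide. Liraglutide tumors 3 and 5 exceeded every vehicle tumor and the other 3 lay within the vehicle range, and the log2 fold change was 0.26 ± 0.17 (SE, edgeR unadjusted p = 0.143). Its promoter window shares 246 bases with that of Sars2, the mitochondrial serine tRNA synthetase gene on the other strand. In all, 22 members had a promoter window that overlapped that of a gene on the opposite strand. Among these members, 15 were negative (beside 62 of all 77), and Mrpl46 and Mrps11 are neighbours of each other.

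Mrps36, the dehydrogenase subunit, had the highest fold change. Its values were 3.94, 2.64, 4.62, 4.52 and 4.24 CPM with vehicle and 4.58, 5.55, 4.17, 4.63 and 5.81 CPM with liraglutide, and 3 liraglutide tumors exceeded every vehicle tumor. The log2 fold change was 0.31 ± 0.19 (SE, edgeR unadjusted p = 0.138). Mrpl57, of the large subunit, had 5.18 to 12.4 CPM with vehicle and 8.64 to 11.98 CPM with liraglutide, a log2 fold change of 0.21 ± 0.22.

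The other 9 members picked for their role had log2 fold changes between -0.11 and 0.06. At the base of the stalk that holds Mrpl12, Mrpl10 had 23.6 ± 2.403 CPM with vehicle and 24.4 ± 2.57 CPM with liraglutide, and Mrpl11 had 23.7 ± 4.89 and 21.98 ± 4.07 CPM (SD, n = 5 each). Their log2 fold changes were 0.05 ± 0.11 and -0.11 ± 0.17 (SE), beside -0.25 ± 0.08 for Mrpl12, and the differences between these genes were not tested. The 95% interval of Mrpl10, from -0.20 to 0.29, overlapped that of Mrpl12, from -0.43 to -0.06.

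The proteins of the 3 Mrps18 genes occupy different places, Mrps18a on the large subunit and Mrps18b and Mrps18c on the small one. Mrps18a had 20.2 ± 2.28 CPM with vehicle and 20.8 ± 2.81 CPM with liraglutide. Mrps18b had 8.75 ± 1.06 and 9.11 ± 0.527 CPM, and Mrps18c had 12.8 ± 2.44 and 11.9 ± 1.29 CPM (SD, n = 5 each). The log2 fold changes of 0.04, 0.06 and -0.10 were all smaller than their standard errors.

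Mrpl58, a peptidyl-tRNA hydrolase built into the large subunit, had a log2 fold change of -0.03 ± 0.13 (SE). Mrpl44, which resembles RNase III and is mutated in inherited cardiomyopathy, had one of 0.06 ± 0.15. For the small-subunit proteins Mrps7 and Mrps22, mutated in other inherited mitochondrial diseases, the values were -0.08 ± 0.14 and -0.11 ± 0.14. In each of these 4 genes the ranges of the groups overlapped, and the intervals do not show that the levels were equal.

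**Figure D3:**
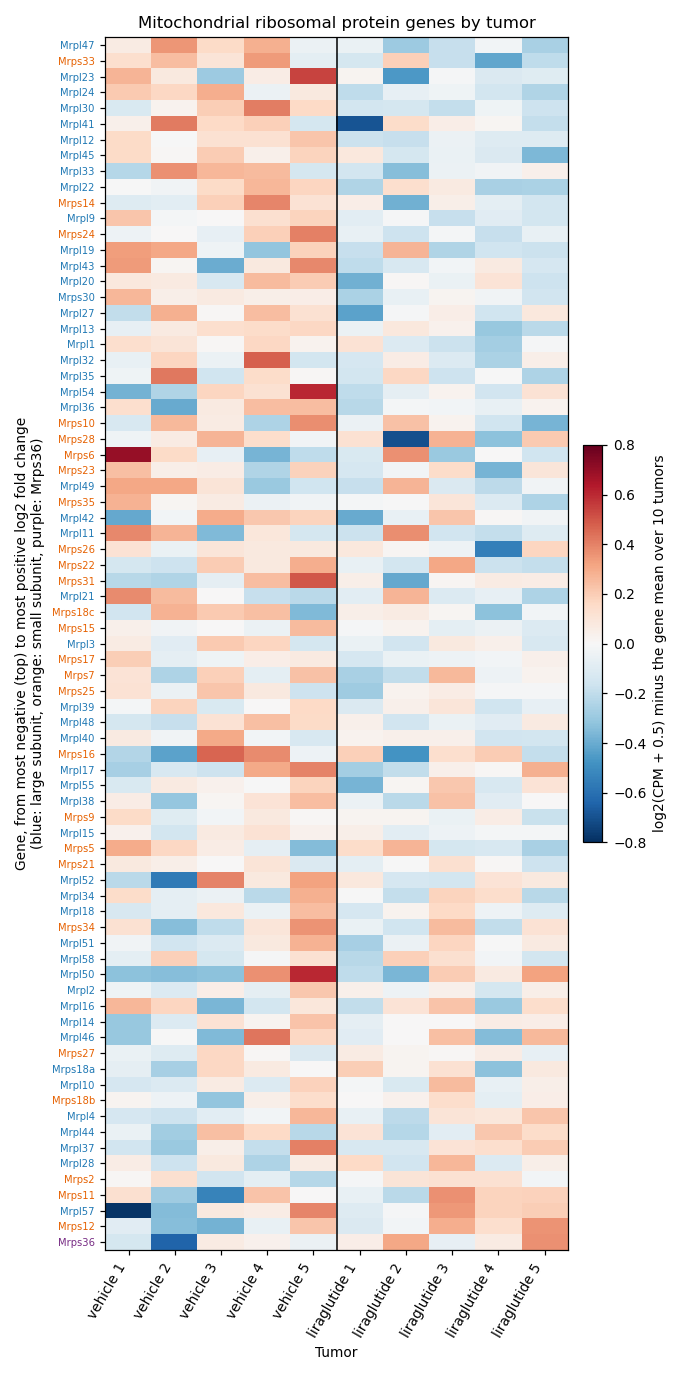
Level of each of the 77 tested genes (rows, ordered from the most negative to the most positive log2 fold change) in each of the 10 tumors (columns), as log2(CPM + 0.5) minus the mean of the gene over the tumors, with gene names in blue for the large subunit, orange for the small subunit and purple for Mrps36. The upper rows are redder in the vehicle columns and the reverse holds in the lowest rows by the ordering, and vehicle tumor 5 holds the highest value of 22 genes.

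Seen tumor by tumor, the members together took 0.152% to 0.174% of the counts. As such shares, without TMM scaling, the groups overlapped throughout, since vehicle tumor 2 was the lowest of the 10 and all 5 liraglutide tumors lay within the vehicle range. Summed over members after TMM scaling, vehicle tumors 1 to 5 had 1656, 1604, 1660, 1711 and 1762 CPM and liraglutide tumors 1 to 5 had 1517, 1571, 1650, 1532 and 1567 CPM. Liraglutide tumor 3 exceeded vehicle tumor 2, and the other 4 liraglutide tumors lay below all vehicle tumors. A vehicle tumor had the highest value in 63 of the 77 members (81.8%, against 62.2% of all tested genes), and a liraglutide tumor the lowest in 48 (62.3%, against 38.8%).

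These extremes were unevenly spread. Vehicle tumor 5 was the highest of the 10 in 22 members (28.6%, against 15.4% of all tested genes), and it also had the highest sum of adenocarcinoma markers, 10661 CPM. Liraglutide tumors 1 and 4 were the lowest in 12 members each (15.6%, against 6.65% and 5.64%), whereas liraglutide tumor 3 was the lowest in 2 and the highest in 9. Without vehicle tumor 5, 49 of 77 members were negative, against 50.1% of all genes, with a median of -0.08 against -0.00050 over all genes. At an unadjusted p under 0.05, 5 members were then lower (against 7.44% of all genes) and 1 was higher (against 6.1%).

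Large-subunit genes summed to 1193 ± 51.1 CPM with vehicle and 1105 ± 38.9 CPM with liraglutide (SD, n = 5 each). Small-subunit genes summed to 481 ± 15.2 and 457 ± 16.7 CPM. The ratio of large to small lay between 2.32 and 2.61 in all tumors, at 2.48 ± 0.0964 with vehicle and 2.42 ± 0.0690 with liraglutide, and overlapped between the groups.

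**Figure D4:**
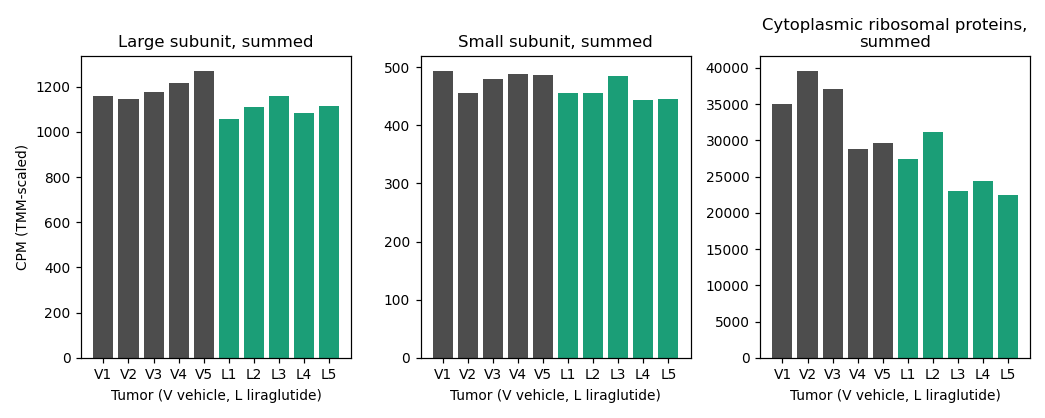
Summed TMM-scaled CPM of the large-subunit genes, the small-subunit genes and the cytoplasmic ribosomal protein genes in each tumor (bars from 0, grey for vehicle V1 to V5 and green for liraglutide L1 to L5). The large-subunit sum lies between 1056 and 1271 CPM and the small-subunit sum between 444 and 494 CPM, while the cytoplasmic sum spans 22436 to 39613 CPM.

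The median SD of the members' log2 CPM within a group was 0.19, against 0.31 over all tested genes, and counting alone would give about 0.09. It was 0.18 for the translation factors, 0.19 for the tRNA synthetases, 0.16 for the genes of mitochondrial mass and import and 0.14 for the mitochondrially encoded proteins. Higher values were found for assembly and RNA modification (0.21), biogenesis regulators (0.23) and transcription and genome maintenance (0.24). The same held for mitoribosomal proteins under other symbols (0.23) and cytoplasmic ribosomal proteins (0.23). Across the 10 tumors the median correlation between a pair of members was 0.133, and 0.0722 after the group means were taken out. The value was -0.00178 between members and all other genes, 0.0773 between members and cytoplasmic ribosomal proteins and 0.840 between cytoplasmic ribosomal proteins. After the group means were taken out, these became -0.00283, -0.170 and 0.725. These correlations describe genes of the same 10 libraries, which share depth and scaling, and a weak one at such counts is no finding. Mrpl50, picked after its values were seen, had the widest range in CPM, with 42.0 to 81.0 CPM in the vehicle tumors and 41.3 to 66.8 CPM in the liraglutide tumors.

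Of the mitoribosomal proteins under other symbols, all 5 had negative fold changes, with a median of -0.21 and 0 at an unadjusted p under 0.05 in edgeR. They are Ptcd3 (-0.32 ± 0.15, SE), Chchd1 (-0.27 ± 0.21), Dap3 (-0.04 ± 0.09) and Aurkaip1 (-0.12 ± 0.16) of the small subunit and Gadd45gip1 (-0.21 ± 0.14) of the large. The most abundant was Ptcd3. It had 100.0, 111, 81.0, 83.7 and 81.9 CPM with vehicle and 74.8, 97.4, 60.7, 69.1 and 65.5 CPM with liraglutide, and liraglutide tumor 2 alone overlapped.

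The lists of other steps around the ribosome had medians between -0.09 and 0.01, and 3 of these medians took the other sign when single tumors were left out. Among 17 translation factors, 11 were negative (median -0.04), and Slirp, which stabilizes mitochondrial messenger RNAs, was the 1 gene lower at an unadjusted p under 0.05 (-0.46 ± 0.13, SE), which is 5.88% of the list against 5.62% of all genes. Its adjusted p in edgeR's quasi-likelihood test was 0.482. Next in that list came the ribosome recycling factor Mrrf (-0.32 ± 0.16). Among 31 genes of ribosome assembly and RNA modification, 19 were negative (median -0.08), and the assembly factor Mettl17 was higher at an unadjusted p under 0.05 (0.29 ± 0.12, adjusted p of 0.515 in edgeR), which is 3.23% of the list against 3.97% of all genes, while the helicase gene Ddx28 stood at -0.46 ± 0.22.

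Among 17 tRNA synthetases, 10 were negative (median -0.02). Lars2 had a log2 fold change of -1.75 ± 0.72 through vehicle tumor 2, with 233 CPM against 14.1 to 35.8 CPM in the other 9 tumors. It was the 1 gene of the list lower at an unadjusted p under 0.05 (5.88%, against 5.62% of all genes), with an adjusted p of 0.504 in edgeR. Fars2 had 0.27 ± 0.13. The 13 genes of mitochondrial transcription and genome maintenance had a median of 0.01 with 5 negative and 0 at an unadjusted p under 0.05, and they included Tfam (-0.19 ± 0.10) and Ssbp1 (-0.17 ± 0.12). The 10 regulators of biogenesis had a median of -0.09 with 7 negative and 0 at that p, and the lowest p-values were those of Myc (-0.23 ± 0.11) and Esrra (-0.26 ± 0.14).

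The genes that the mitochondrial ribosome translates had fold changes in both directions. Of the 13 mitochondrially encoded proteins, 7 had enough counts, and 4 of these were negative with a median of -0.02. mt-Co1, a core subunit of cytochrome oxidase, had 8524 ± 1013 CPM with vehicle and 7136 ± 511 CPM with liraglutide (SD, n = 5 each), a log2 fold change of -0.26 ± 0.11 (SE, edgeR unadjusted p = 0.0360, adjusted p = 0.512). mt-Nd2, of complex I, stood at 0.22 ± 0.11. The other 6 genes were listed at 0 to 17 counts a tumor, beside 76336 or more for mt-Co1, and were not tested. Of the RNAs of the ribosome itself, mt-Rnr1 had 582 CPM in vehicle tumor 2 and 19.3 to 56.7 CPM elsewhere. For mt-Rnr2 the values were 1107 CPM in vehicle tumor 2 and 235 to 542 CPM elsewhere. The libraries were depleted of ribosomal RNA, so these values are what depletion left. Without vehicle tumor 2, 64 of the 77 members were negative, the median was -0.11, and 6 were lower at an unadjusted p under 0.05, against 53.1% of all genes negative, a median of -0.02 and 3.35% lower at that p.

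Beyond translation, 15 genes mark mitochondrial mass and protein import. Of these, 14 were negative with a median of -0.25, and 8 (53.3%, against 5.62% of all genes) were lower at an unadjusted p under 0.05 in edgeR. The import receptors Tomm20 (-0.32 ± 0.11) and Tomm22 (-0.25 ± 0.09) had the smallest p-values, with adjusted p-values of 0.482 each. Of 82 cytoplasmic ribosomal protein genes, 79 were tested. Of these, 76 were negative with a median of -0.38. In edgeR, 61 (77.2%, against the same 5.62%) were lower at an unadjusted p under 0.05 and 0 passed the adjusted threshold. Rpl39 stood at -0.78 ± 0.17 and Rps27a at -0.64 ± 0.14 (SE). The paper, which used DESeq2, names Rpl39 among its differentially expressed transcripts, as reduced with liraglutide. The members' median of -0.09 thus lay between that of all genes (-0.02) and that of the cytoplasmic list, with no test between the lists. All these values come from 1 comparison of the same 10 tumors.

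**Figure D5:**
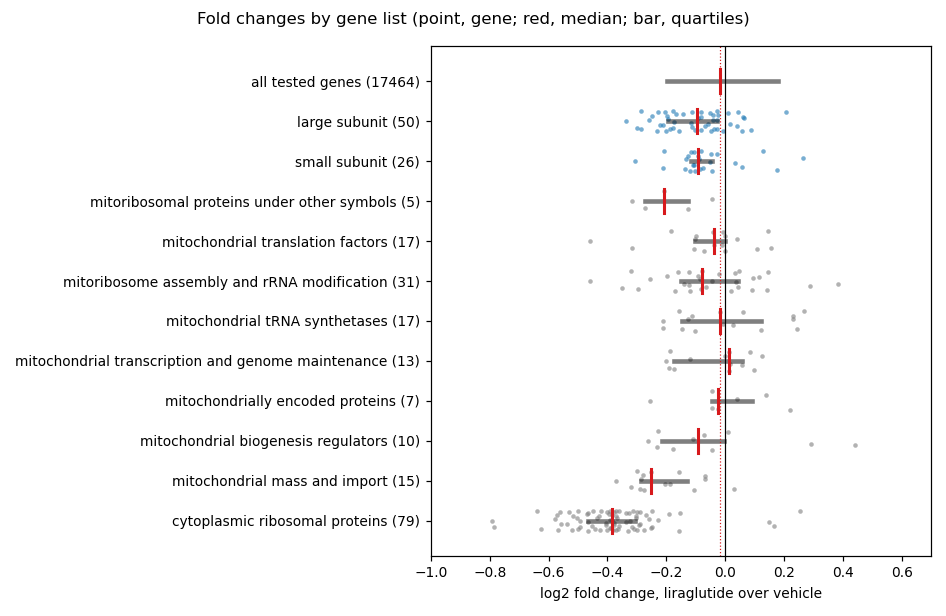
Log2 fold change, liraglutide over vehicle, of the genes of each list (points), with the median in red and the range between the quartiles as a bar, and the number of tested genes in brackets. For all 17464 tested genes only the median and quartiles are drawn, 1 gene (Lars2, at -1.75) lies beyond the axis, the mitochondrially encoded ribosomal RNAs (median -1.55) are not drawn, and the medians of the drawn lists run from 0.01 for transcription and genome maintenance to -0.38 for the cytoplasmic ribosomal proteins.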

How the data were processed

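RNA of 10 subcutaneous tumors was sequenced by the authors after depletion of ribosomal RNA, with a kit that marks the strand. The authors deposited raw counts per gene with no normalization, for which, per the paper's methods, Bowtie and TopHat aligned the read pairs to GRCm39 and featureCounts counted them, while the submitters' processing notes list mm10, GRCh38 and FastQC. The strand setting, the annotation release and the treatment of reads with several positions are not given in the sources used here. Samples were filtered by the authors after quality assessment. All 10 columns were used and the groups were taken from the sample titles.

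Of 55401 gene identifiers, 51731 (93.4%) matched GENCODE M39 without their version, and these held 98.3% of the counts. Only 35 had the same version. The symbols and gene types that define the members and lists were taken from M39. So were chromosomes, exon overlaps and the lengths of canonical transcripts and their coding sequence. Promoter windows and their coordinates are those of RefSeq on GRCm38.p6.

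Low genes were removed with filterByExpr of edgeR 4.0.16 (R 4.3.3), which left 17464 genes. The model took TMM-scaled libraries, had treatment as its only factor and used the quasi-likelihood F test, with Benjamini-Hochberg adjustment over all tested genes. The SE is the log2 fold change divided by the square root of F. For named genes, a two-sided exact permutation test compared log2 CPM. Alternatives were DESeq2 1.42.0, the tool of the paper, limma 3.58.1 with voom weights, size factors from DESeq2 in edgeR, total counts as library sizes, and filters of at least 1 count in all or at least 10 in each tumor. Others dropped the genes for mitochondrial transcripts and rRNA, made the empirical Bayes step robust, corrected for gene length, used the tumor number as a block, or left out 1 tumor at a time. DESeq2 without independent filtering was added after seeing the data. The methods were tested on simulated data.

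The members, the lists and the motifs were chosen with earlier results of these data known. Genes named are the members without overlap between the groups, the 10 with the smallest p, the 3 most negative and 3 most positive fold changes, the 3 highest and 3 lowest levels per kilobase, 13 members picked by role, members that did not pass the filter, and in each other list the 2 genes with the smallest p. Mrpl50, Mrpl51, Mrps17 and Sars2 were named after their values were seen, and Mrpl46 and Mrps11 were named outside the rule as neighbours. Total counts were 9927942 to 14480593 a tumor, and floors of 3 counts cover counting error only. The alleles of the tumor line are not reported here.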

Additional observations from a re-analysis of the deposited data

Results flagged for a closer look

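For the 29 tested members named by the rule and the sum over all members, 1 tumor stood apart from the other 4 of its group in 4 of 60 groups looked at by Dixon's test at the 95% level, and chance alone flags about 1 group in 20. In vehicle tumor 1, Mrps30 had 27.6 CPM, where the next vehicle tumor had 24.1 CPM, so the tumor that stood apart lay away from the liraglutide group. Mrpl11 had 29.2 CPM in liraglutide tumor 2, with 20.9 CPM in the next. Mrps22 had 24.7 CPM in liraglutide tumor 3, with 19.1 CPM in the next. Mrps18c had 9.64 CPM in liraglutide tumor 4, with 11.98 CPM in the next. Without that tumor, none of these genes passed the adjusted threshold. Leaving out single tumors moved the log2 fold change of Mrpl11 between -0.23 and -0.021 and that of Mrps22 between -0.21 and -0.034. It moved Mrps18c between -0.19 and -0.030 and Mrps30 between -0.22 and -0.15.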

How the results depend on the processing

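In every alternative that gave the members an adjusted p, 0 of 77 passed, and their smallest adjusted p lay between 0.198 and 0.900. DESeq2 with its default independent filtering gave no member an adjusted p, and it stands here without that count. The median of the members stayed negative and below that of all genes, at -0.09 to -0.04 across the settings on all tumors and at -0.11 to -0.07 when single tumors were left out.

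The 6 members lower at an unadjusted p under 0.05 became 2 with libraries scaled by total counts alone (against 3.54% of all genes), 4 without vehicle tumor 4 (against 8.06%), and 3 to 6 when single tumors were left out (3 without liraglutide tumor 3, against 3.35% of all genes, or 5, against 2.99%). The 0 higher members became 1 without vehicle tumor 5 (against 6.1% of all genes). The 2 members without overlap became 0 with total counts alone or with at least 10 counts in every tumor, and 3 to 5 when a tumor was left out (against 1.01% to 2.54% of all genes, and 0.888% with all tumors). The median of the assembly and RNA modification list was -0.024 with total counts alone and -0.084 to -0.029 with single tumors left out (highest without vehicle tumor 1). That of the mitochondrially encoded ribosomal RNAs was -1.85 to -0.45 (highest without vehicle tumor 2). Medians near 0 turned in sign. With single tumors left out, that of the translation factors was -0.079 to 0.0052 (above 0 without vehicle tumor 4), that of the tRNA synthetases -0.10 to 0.015 (above 0 without vehicle tumor 1 or 5 or liraglutide tumor 5) and that of transcription and genome maintenance -0.067 to 0.071 (above 0 only without vehicle tumor 1 or liraglutide tumor 3 or 5). That of the mitochondrially encoded proteins was -0.044 to 0.0089 (above 0 without liraglutide tumor 1). With total counts alone, the median was 0.015 for the translation factors, 0.035 for the tRNA synthetases and 0.032 for the mitochondrially encoded proteins. With the gene length correction it was 0.065 for the mitochondrially encoded proteins (0.060 with the replicate block as well) and -0.0096 for transcription and genome maintenance. With at least 10 counts in every tumor it was 0.0058 for the tRNA synthetases and 5.6e-05 for the mitochondrially encoded proteins.

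Single genes turned in sign. With total counts alone, Mrpl58 was at 0.026 and Mrps21 at 0.00715, and Mrps21 was at 0.04004 with the gene length correction and 0.035 with that correction and the replicate block. Leaving out single tumors moved Mrpl10 between -0.015 and 0.11, Mrpl44 between -0.0013 and 0.14, Mrpl54 between -0.26 and 0.019 (-0.16 with all tumors, above 0 without vehicle tumor 5), Mrpl55 between -0.12 and 0.023 and Mrpl58 between -0.074 and 0.022. It moved Mrps18a between -0.017 and 0.13, Mrps18b between -0.0071 and 0.11 and Mrps28 between -0.23 and 0.014 (-0.13 with all tumors, above 0 without liraglutide tumor 2). For these changes, apart from the number of tumors, the cause was not tested.

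Same-numbered tumors of the groups were checked for a shared deviation. The correlations of their deviations were 0.36, 0.60, -0.07, 0.07 and 0.41 for numbers 1 to 5. They do not settle whether the numbers mark pairs, and the main comparison did not pair the tumors. With the tumor number as a replicate block, 0 members passed, 4 were lower at an unadjusted p under 0.05 (against 7.31% of all genes) and 61 were negative with a median of -0.09. As a limit on single genes, 10 of 77 intervals reached beyond 0.58, and of the median within-group SD of log2 CPM of 0.19 counting alone would give about 0.09.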
